A study of Mus musculus with 16 samples.

Results

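The genes described here are the cytochrome P450 genes of families 1, 2 and 3, taken as every row of both deposited tables whose symbol is Cyp1, Cyp2 or Cyp3 followed by a subfamily letter and a number. The rule found 60 genes among 22322 gene identifiers, with 3 in family 1, 48 in family 2 and 9 in family 3. The series sequenced poly(A)-selected RNA of liver and white adipose tissue from diet-induced obese (DIO) mice. The arm labelled H100 received halofuginone at 100 µg/kg into the peritoneal cavity every 2 days, and the arm labelled HFD is taken as the vehicle arm of the series' description. Tissue was taken after 8 weeks, with 5 vehicle and 5 halofuginone livers and 3 vehicle and 3 halofuginone fat samples. Halofuginone is a synthetic derivative of a plant quinazolinone. It blocks prolyl-tRNA synthetase and so raises uncharged tRNA, a signal of amino acid shortage. The labels give no strain, age, sex, fat depot or lean control, and do not say which liver and fat came from the same animal or whether the samples of a group were separate animals. The p-values below therefore measure the spread between these samples.

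Cytochrome P450 enzymes are haem proteins of the endoplasmic reticulum that insert oxygen into drugs, steroids, fatty acids, bile acids and vitamins, with electrons passed on by P450 oxidoreductase (Por) and cytochrome b5. Families 1 to 3 are the main drug-metabolising families of hepatocytes. Their genes are switched by the aryl hydrocarbon receptor (Ahr, family 1), the constitutive androstane receptor (Nr1i3, mainly Cyp2b and Cyp2c) and the pregnane X receptor (Nr1i2, mainly Cyp3a), on top of liver factors such as Hnf4a. Many are strongest around the central vein of the liver lobule, and several differ between male and female mice. In fat they are few, and Cyp2e1 and Cyp1b1 are the usual ones.

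The liver libraries held 20309956 to 31980683 counts and the fat libraries 17070614 to 21387799. The levels below are CPM (counts divided by the library total and scaled with edgeR's TMM factors) or the deposited FPKM, which is per gene length and without these TMM factors. The 2 scales can therefore give different ratios between the groups, also for the summed FPKM. Hepatocyte markers, including albumin, were abundant in all 10 livers, with a summed level of 117426 to 134937 CPM in the vehicle group and 50170 to 111239 CPM in the halofuginone group. Of the 10 hepatocyte markers tested, 2 fell (Hnf4a and Ttr) and 1 rose (Tat); without halofuginone replicate 1, 5 fell and 2 rose. Of the markers of other cells in liver, 4 of 8 stellate cell and fibroblast markers fell (Col1a1, Col3a1, Pdgfrb and Reln), with a summed level of 309 to 399 CPM with vehicle and 196 to 324 CPM with halofuginone. Among 6 endothelial markers 3 fell (Cdh5, Lyve1 and Pecam1) and 1 rose (Kdr), and 1 of 5 cholangiocyte markers fell (Spp1). Of 4 adipocyte markers tested, 3 fell (Fabp4, Lipe and Pparg), with sums over the list of 72.6 to 163 CPM and 30.5 to 82.0 CPM, while Adipoq had a mean of 0.0154 CPM in the vehicle group and none in the halofuginone group. Of 8 macrophage markers 0 were called by edgeR. Without replicate 1, 6 stellate, 4 endothelial and 2 macrophage markers were called lower and 0 of them higher, and the adipocyte and cholangiocyte counts stayed the same. Over all genes tested in liver, 10.5% were called lower and 12.7% higher, and 21.6% and 21.2% without replicate 1. The part of these other cells in the P450 results was not tested. Albumin made up most of the summed hepatocyte markers, at 85298 to 98802 CPM with vehicle and 26739 to 80505 CPM with halofuginone. The marker F2 was at 1568 to 1730 CPM and 1349 to 1737 CPM. In these bulk samples, fewer hepatocytes, less RNA per hepatocyte and changes of single genes cannot be told apart. Halofuginone liver replicates 1 and 2 were the opposite ends of their group. Of the 37 P450 genes tested in liver, replicate 1 lay below every vehicle library for 17, inside the vehicle range for 14 and above it for 6, while replicates 2 to 5 lay below for 32, 23, 21 and 24. Over all 12311 genes tested, replicate 1 lay below every vehicle library for 24.5% and above every one for 23.0%, and replicates 2 to 5 lay below for 31.7%, 31.7%, 29.8% and 31.0%. Replicate 1 moved the calls most, so results that rest on it are given with and without it.

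In vehicle liver the family was dominated by a single gene. Cyp2e1, which oxidises ethanol and other small molecules, averaged 6593 ± 667 FPKM (SD, n = 5), or 54.0% of the summed FPKM of the 60 genes. The next 7 were Cyp2d9 at 576 ± 105 FPKM, Cyp2d10 at 562 ± 29.7, Cyp3a11 at 559 ± 152, Cyp2d26 at 493 ± 50.5, Cyp2c29 at 391 ± 196, Cyp2c50 at 377 ± 45.7 and Cyp2f2 at 366 ± 19.8. Cyp2e1 was above all of these in every library, and the levels of Cyp2d9, Cyp2d10, Cyp3a11 and Cyp2d26 lay within the spread of their neighbours in the order. By this measure 33 genes reached a mean of 1 FPKM in the vehicle group.

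The summed FPKM of the 60 genes was 12142, 12526, 11011, 11685 and 13576 in the vehicle livers. In the halofuginone livers it was 11713, 3553, 5283, 8720.0 and 6385. Replicates 2 to 5 of the halofuginone group lay below every vehicle library and replicate 1 lay within the vehicle range. The ratio of the group means was 0.585, and 0.491 without halofuginone replicate 1. No p-value is attached to a sum over genes chosen with results known. The 60 genes took 1.99% to 2.48% of all counts in the vehicle livers. In halofuginone replicates 1 to 5 they took 2.10%, 0.665%, 0.969%, 1.58% and 1.16%.

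**Figure D1:**
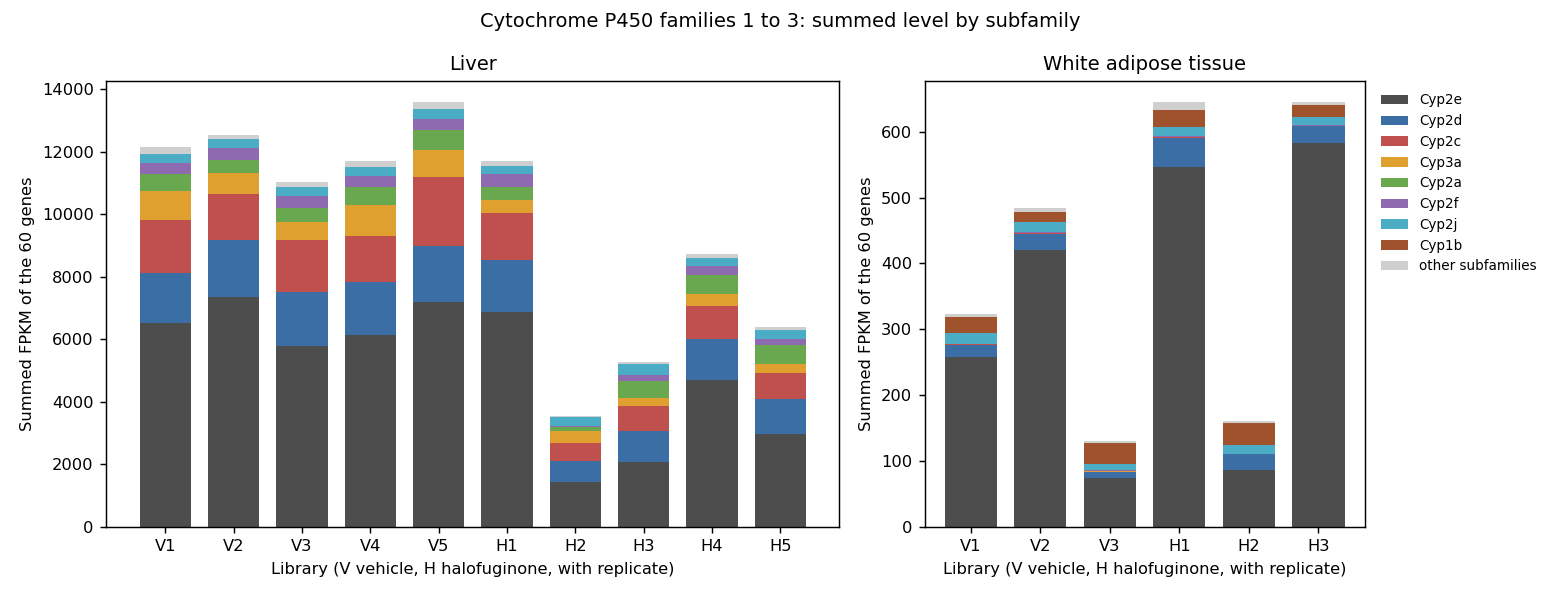
Summed FPKM of the 60 P450 genes in each library, stacked by subfamily, for liver (left, 5 vehicle libraries V1 to V5 and 5 halofuginone libraries H1 to H5) and white adipose tissue (right, 3 and 3); the y axes differ between tissues. In liver H2 to H5 sum to 3553 to 8720 FPKM against 11011 to 13576 in the vehicle libraries, with H1 at 11713, and Cyp2e1 is the largest block in every bar of both tissues.

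Halofuginone lowered 11 of the 37 tested P450 genes in liver and raised 0 (edgeR quasi-likelihood test, Benjamini-Hochberg adjusted p under 0.05 over 12311 genes). Over all genes tested, 23.2% were called, 10.5% lower and 12.7% higher. The 11 genes were Cyp3a11 and Cyp3a59, Cyp2c29, Cyp2c37, Cyp2c38, Cyp2c39 and Cyp2c50, Cyp2d9, Cyp2d22 and Cyp2d40, and Cyp2j6. At an unadjusted p under 0.05, 19 P450 genes were lower and 4 higher, against 18.0% and 21.1% of all genes. The fitted change was below 0 for 31 of the 37 tested genes, compared with 48.3% of all genes, and the median log2 fold change was -0.79 against 0.017 for all genes. For 10 of the 37, every halofuginone library lay below every vehicle library, which held for 6.55% of all genes. No P450 gene lay wholly above, which held for 5.13% of all genes. Scaling by library size alone moved the median of all genes to 0.173 and all calls from 1292 lower and 1558 higher to 838 lower and 2789 higher; 12 P450 genes were then called lower and 3 higher, and 26 of the 37 had a fold change below 0.

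Without halofuginone replicate 1, 22 of 38 tested P450 genes were called lower and 2 higher, with 21.6% and 21.2% of all genes called in those directions. All 11 genes above were among the 22. Without halofuginone replicate 3 the counts were 10 lower and 0 higher of 38 tested, with only 4.66% of all genes called lower. DESeq2 on all 10 libraries fitted 51 P450 genes and gave 15 lower and 2 higher, against 12.1% and 13.3% of all genes. The other 11 genes called without replicate 1 were Cyp1a2, Cyp2b13, Cyp2c23, Cyp2c54, Cyp2c55, Cyp2d10, Cyp2d26, Cyp2e1, Cyp2f2, Cyp2j9 and Cyp3a25, and the 2 higher ones were Cyp2c40 and Cyp3a13. Of these, Cyp2c55 was too low to be tested in the full comparison. The larger count describes the other 4 treated livers and is not the result of the full comparison.

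**Figure D2:**
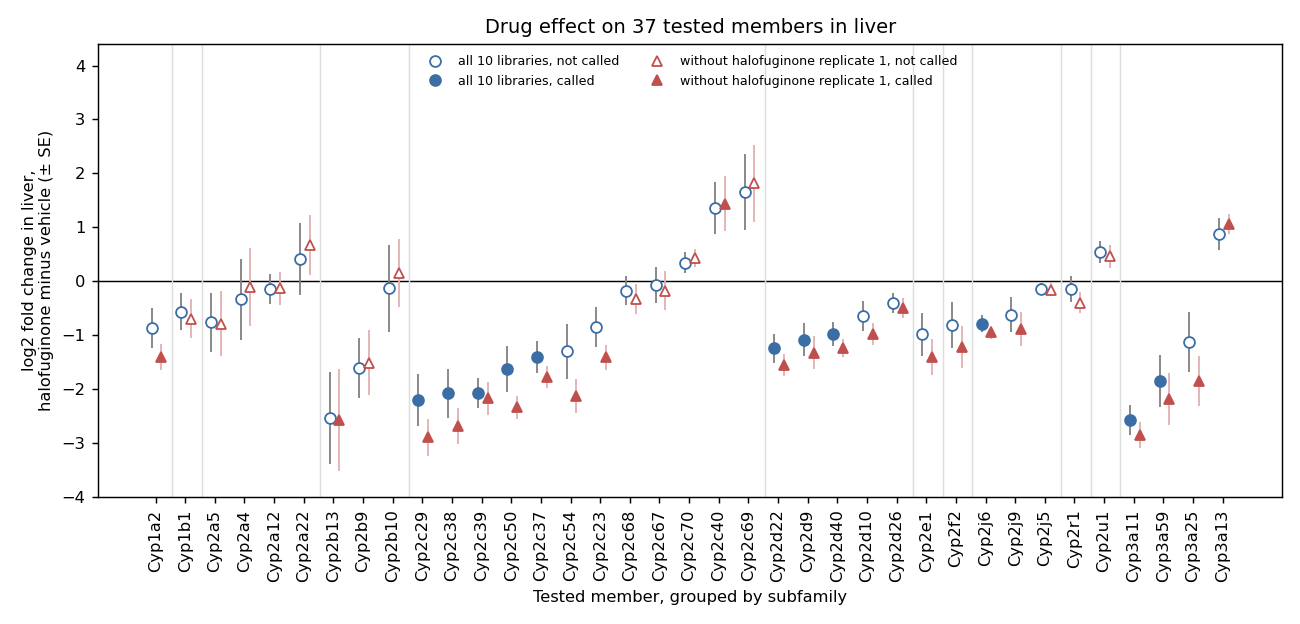
log2 fold change in liver (halofuginone minus vehicle, with its standard error) for the 37 tested P450 genes in the order of their subfamilies, from all 10 libraries (blue circles) and without halofuginone replicate 1 (red triangles); filled symbols passed an edgeR adjusted p of 0.05. Among the blue circles the lowest called value is that of Cyp3a11 at -2.58, and Cyp2c40, Cyp2c69 and Cyp3a13 lie above 0 without being called in the full comparison.

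The Cyp3a enzymes, which handle the broadest range of drugs and also hydroxylate steroids, included the largest fall of the family and a gene with higher values in most treated livers. Cyp3a11, the main Cyp3a enzyme of mouse liver and a classic pregnane X receptor target, fell the most. Cyp3a11 stood at 1488, 1134, 938, 1771 and 1544 CPM in the vehicle livers and at 380.0, 221, 135, 232 and 186 CPM in the halofuginone livers. Every halofuginone liver, replicate 1 included, was far below the lowest vehicle liver (log2 fold change -2.58, SE 0.28, edgeR adjusted p 0.000899). The vehicle mean was 5.96-fold the halofuginone mean. Cyp3a59, a gene at a much lower level, read 21.2, 11.1, 11.0, 19.8 and 14.5 CPM with vehicle and 7.70, 1.98, 1.14, 8.37 and 2.46 CPM with the drug. The groups did not overlap (log2 fold change -1.86, SE 0.48, edgeR adjusted p 0.0220), although the call was lost without halofuginone replicate 5 (edgeR adjusted p 0.0566). Cyp3a25 had 454, 303, 289, 322 and 317 CPM in vehicle livers and 387, 41.2, 38.8, 212 and 89.0 CPM in treated ones. Only replicate 1 of the treated livers lay inside the vehicle range, and the gene was not called (log2 fold change -1.13, SE 0.56, edgeR adjusted p 0.154; -1.84 with edgeR adjusted p 0.00847 without replicate 1). Of the windows of 75 bases in the Cyp3a59 transcript, 10.8% also occur in Cyp3a25, so reads of these 2 genes could partly be exchanged, whereas the Cyp3a11 and Cyp3a13 transcripts examined, the longest of each gene, have no window in another gene.

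Cyp3a13, the Cyp3a gene that lies far from the others on chromosome 5, pointed the other way. Its levels were 366, 209, 225, 228 and 253 CPM in the vehicle group and 175, 671, 454, 525 and 527 CPM in the halofuginone group. Replicates 2 to 5 were above every vehicle liver, and replicate 1 was below every one of them. The full comparison missed the threshold (log2 fold change 0.88, SE 0.30, edgeR adjusted p 0.0529), and without replicate 1 the gene was called higher (1.06 with edgeR adjusted p 0.000961). It was the only tested P450 gene that was above all vehicle livers in replicates 2 to 5 and below them in replicate 1. Of the summed FPKM of the 60 genes, Cyp3a13 made up 0.676% in vehicle and 3.16% in halofuginone livers, while the share of Cyp3a11 was 4.58% and 1.59%. The sum itself was lower on average with halofuginone, and the mean of Cyp3a13 was 82.1 and 169 FPKM, or 256 and 470 CPM. The summed FPKM of the Cyp3a subfamily had a halofuginone to vehicle ratio of 0.435, with 579 to 998 FPKM in the vehicle group and 274 to 416 FPKM in the halofuginone group, which did not overlap.

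The sequence before the start of transcription is shown for this pair because these 2 genes of 1 subfamily differ in both level and direction of the fold change. Each window holds the 250 bases before the RefSeq start (GRCm38.p6), written 5′ to 3′ on the gene's strand, with capitals marking exact matches to 6 motifs searched on both strands: AGGTCA and AGTTCA (nuclear receptor half-sites), CAAAGTCCA (the core of an HNF4 element), TGATGNAA (the C/EBP-ATF response element), GCGTG (the aryl hydrocarbon receptor element core) and TATAAA. The Cyp3a11 window is chr5:145879855-145880104 and the Cyp3a13 window is chr5:137921620-137921869, both on the minus strand.
Cyp3a11: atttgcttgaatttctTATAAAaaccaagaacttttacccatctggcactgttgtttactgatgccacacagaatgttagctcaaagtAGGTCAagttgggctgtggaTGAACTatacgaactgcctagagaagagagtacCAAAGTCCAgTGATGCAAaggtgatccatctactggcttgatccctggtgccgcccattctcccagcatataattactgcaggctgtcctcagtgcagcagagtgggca
Cyp3a13: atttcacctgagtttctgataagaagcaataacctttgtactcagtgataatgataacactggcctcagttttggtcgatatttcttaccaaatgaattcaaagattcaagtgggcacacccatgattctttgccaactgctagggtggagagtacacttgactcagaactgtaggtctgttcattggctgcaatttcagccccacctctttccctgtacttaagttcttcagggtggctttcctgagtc
The Cyp3a11 window holds TATAAA from base 234 to 229 before the start, AGGTCA from 162 to 157, AGTTCA on the other strand (printed as TGAACT) from 142 to 137, CAAAGTCCA from 109 to 101 and TGATGNAA from 99 to 92. The Cyp3a13 window holds no match to any of the 6. Among 27025 genes with a window, AGGTCA occurs in 15.8%, AGTTCA in 13.4%, CAAAGTCCA in 0.451%, TGATGNAA in 3.91%, GCGTG in 30.9% and TATAAA in 14.3%. A match describes letters only and is neither a bound site nor a cause.

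The Cyp2c enzymes make epoxides and alcohols from arachidonic and linoleic acid and metabolise many drugs. Of 15 genes, 12 were tested and 5 fell, while 0 were called higher. Cyp2c29, an arachidonic acid epoxygenase known to respond to the constitutive androstane receptor, measured 786, 467, 518, 551 and 1346 CPM in the vehicle livers. With halofuginone it measured 396, 82.4, 86.2, 141 and 89.8 CPM. Replicate 1 was the highest of the treated livers yet still below the lowest vehicle liver (log2 fold change -2.21, SE 0.49, edgeR adjusted p 0.0131). Cyp2c38 counted 120.2, 130.4, 92.9, 149 and 139.6 CPM against 69.7, 19.9, 9.98, 36.6 and 13.5 CPM. Its groups were likewise apart, with replicate 1 nearest to the vehicle group (log2 fold change -2.08, SE 0.46, edgeR adjusted p 0.0125). Cyp2c39, an enzyme that also oxidises retinoic acid, was scarce at 6.89, 4.86, 3.40, 7.80 and 6.03 CPM in vehicle livers and 1.69, 1.45, 0.930, 2.01 and 0.856 CPM in treated livers. All 5 treated livers lay below all vehicle livers, and replicate 1 did not stand out (log2 fold change -2.07, SE 0.28, edgeR adjusted p 0.00313).

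Another group of Cyp2c genes on the same chromosome also fell. Cyp2c37 read 461, 333, 389, 362 and 523 CPM with vehicle and 292, 80.4, 115, 163 and 132 CPM with halofuginone. The groups did not overlap (log2 fold change -1.40, SE 0.30, edgeR adjusted p 0.0112). Cyp2c50 read 729.6, 680.5, 755, 548 and 791 CPM with vehicle. Treated livers gave 569.9, 109, 115, 206 and 132 CPM for Cyp2c50. Replicate 1 lay inside the vehicle range and the other 4 far below it, which made Cyp2c50 the only called P450 gene whose groups overlapped (log2 fold change -1.63, SE 0.43, edgeR adjusted p 0.0231). The call was lost without halofuginone replicate 3, 4 or 5, with edgeR adjusted p up to 0.0580. Cyp2c54, their neighbour, was at 194, 223, 248, 120.0 and 263 CPM in the vehicle group and 231, 35.5, 30.6, 81.7 and 47.5 CPM in the halofuginone group. It was not called (log2 fold change -1.30, SE 0.51, edgeR adjusted p 0.0834; -2.12 with edgeR adjusted p 0.000460 without replicate 1), and replicate 1 again lay inside the vehicle range. Cyp2c23, which stands apart at the end of the row, had the same arrangement of libraries and was not called (log2 fold change -0.85, SE 0.38, edgeR adjusted p 0.118; -1.41 with edgeR adjusted p 0.000681 without replicate 1).

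The Cyp2c genes that were not called lower lie mostly between these groups on chromosome 19. In the order of the GRCm38.p6 annotation the tested genes run Cyp2c29, Cyp2c39 and Cyp2c38, then Cyp2c67, Cyp2c68, Cyp2c40 and Cyp2c69, then Cyp2c37, Cyp2c54 and Cyp2c50, then Cyp2c70 and Cyp2c23. Cyp2c39 has an annotated start on either side of the start of Cyp2c38, so the order of these neighbours is uncertain. The log2 fold changes of the block of Cyp2c67, Cyp2c68, Cyp2c40 and Cyp2c69 were -0.07, -0.17, 1.36 and 1.66, with edgeR adjusted p of 0.894, 0.669, 0.0606 and 0.104. Cyp2c67 spanned 243 to 428 CPM with vehicle and 96.7 to 418 CPM with halofuginone, so the groups overlapped across most of their range. Cyp2c40, which hydroxylates arachidonic acid, measured 2.97, 6.66, 4.24, 3.73 and 3.83 CPM in the vehicle livers and 8.05, 1.90, 9.05, 13.3 and 22.5 CPM in the treated livers. Of the 5 treated values, 4 exceeded every vehicle value, replicate 1 among them, and replicate 2 was below them all; without replicate 1 the gene was called higher (1.44 with edgeR adjusted p 0.0418). Of the windows of 75 bases in these transcripts, 57.1% for Cyp2c40, 43.2% for Cyp2c69, 36.0% for Cyp2c67 and 28.5% for Cyp2c68 occur in another gene, so their separate counts are uncertain. Cyp2c29 shares 0.328%, Cyp2c37 13.8% and Cyp2c50 12.4%.

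Cyp2c70, which makes muricholic acids, closes this stretch of the row. Cyp2c70 read 231, 209, 247, 192 and 213 CPM in vehicle livers and 186, 355, 323, 329 and 187 CPM in treated livers. Treated replicates 2 to 4 were above all vehicle livers and replicates 1 and 5 were just below them (log2 fold change 0.34, SE 0.20, edgeR adjusted p 0.220). Its mean was 126 FPKM with vehicle and 177 FPKM with halofuginone, and 219 and 276 on the CPM scale. Its share of the summed FPKM was 1.04% with vehicle and 3.16% with halofuginone, where the sum itself was lower on average.

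**Figure D3:**
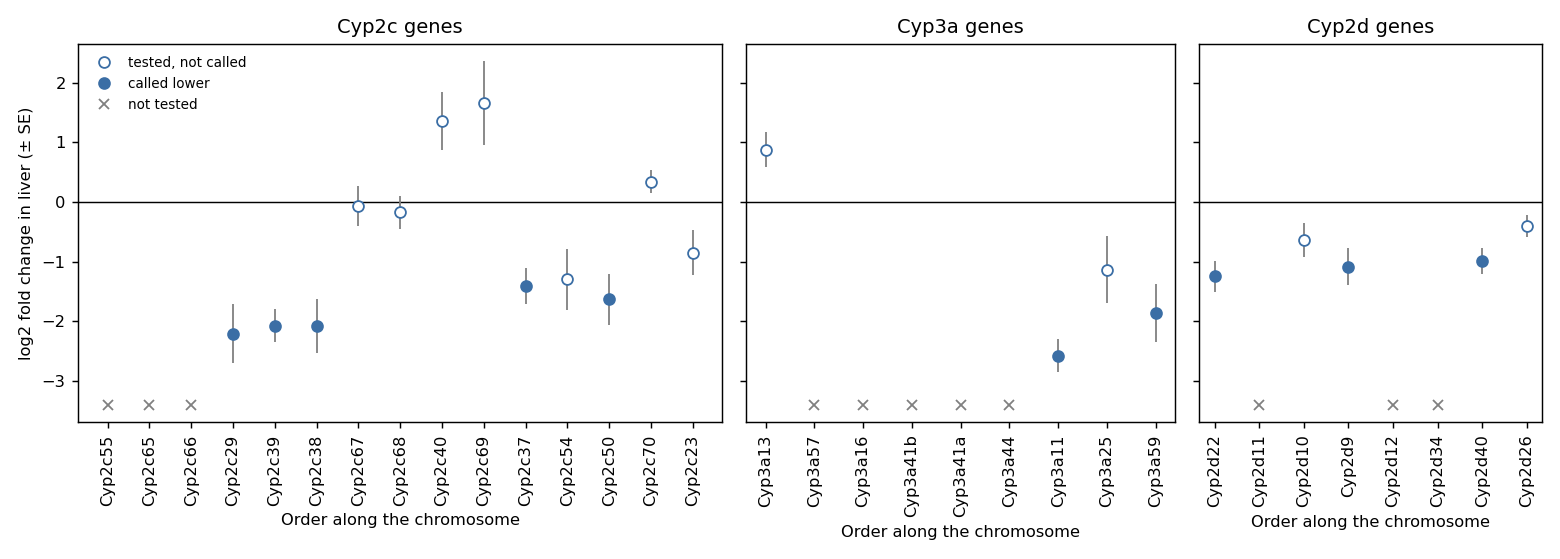
log2 fold change in liver (with its standard error) for the Cyp2c genes of chromosome 19, the Cyp3a genes of chromosome 5 and the Cyp2d genes of chromosome 15, placed in their order along the chromosome and not to scale; filled circles were called lower, open circles were tested and not called, and crosses were too low to test. In the Cyp2c panel the called genes lie on both sides of a block of 4 genes at -0.17 to 1.66.

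Windows before the start are shown for 5 Cyp2c genes because neighbours in this row differ both in their change and in these letters. The first pair, Cyp2c29 (chr19:39286835-39287084, plus strand) and Cyp2c50 (chr19:40089429-40089678, plus strand), fell. The other 3, Cyp2c67 (chr19:39649043-39649292, minus strand), Cyp2c40 (chr19:39812815-39813064, minus strand) and Cyp2c70 (chr19:40187287-40187536, minus strand), were not called. The build, length and capitals are as for the Cyp3a pair.
Cyp2c29: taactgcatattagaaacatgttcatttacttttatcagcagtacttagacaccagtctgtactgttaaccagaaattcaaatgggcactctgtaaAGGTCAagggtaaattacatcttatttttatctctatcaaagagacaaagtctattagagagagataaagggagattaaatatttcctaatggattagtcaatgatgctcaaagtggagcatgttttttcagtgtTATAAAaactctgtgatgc
Cyp2c50: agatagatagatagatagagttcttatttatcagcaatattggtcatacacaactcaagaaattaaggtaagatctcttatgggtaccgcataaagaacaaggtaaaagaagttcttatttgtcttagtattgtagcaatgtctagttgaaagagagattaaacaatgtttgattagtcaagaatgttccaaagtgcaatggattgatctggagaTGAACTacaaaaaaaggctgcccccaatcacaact
Cyp2c67: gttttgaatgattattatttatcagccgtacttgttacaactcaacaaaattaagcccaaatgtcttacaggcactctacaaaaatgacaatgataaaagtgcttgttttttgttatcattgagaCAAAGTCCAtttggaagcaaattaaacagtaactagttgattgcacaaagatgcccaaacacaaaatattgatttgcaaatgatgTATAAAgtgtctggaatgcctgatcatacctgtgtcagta
Cyp2c40: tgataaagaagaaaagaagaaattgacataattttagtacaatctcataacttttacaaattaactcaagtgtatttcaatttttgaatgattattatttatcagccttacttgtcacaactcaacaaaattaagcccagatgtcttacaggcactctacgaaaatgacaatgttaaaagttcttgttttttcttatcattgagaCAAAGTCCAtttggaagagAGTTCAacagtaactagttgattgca
Cyp2c70: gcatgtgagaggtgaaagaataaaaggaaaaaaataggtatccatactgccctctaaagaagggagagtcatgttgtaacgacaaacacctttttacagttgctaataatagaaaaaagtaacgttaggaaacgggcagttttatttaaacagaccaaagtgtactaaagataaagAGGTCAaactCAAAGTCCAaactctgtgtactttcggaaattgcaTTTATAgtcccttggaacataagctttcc
CAAAGTCCA was found in the windows of Cyp2c40, Cyp2c67, Cyp2c68, Cyp2c69 and Cyp2c70, none of which was called, and in none of the 5 Cyp2c genes that fell. Across the 60 genes, 52 have a window in the RefSeq table, with 55 windows in all. A gene with more than 1 window, such as Cyp2c39, counts if any of its windows matches. The AGGTCA and AGTTCA of Cyp2c39 lie in different windows. CAAAGTCCA was in 1 of the 10 called genes with a window (Cyp3a11), in 5 of 23 tested genes that were not called and in 4 of 19 genes too low to test. AGGTCA was in 4, 6 and 5 of these groups, AGTTCA in 3, 2 and 3, TATAAA in 5, 11 and 9, and GCGTG in 0, 4 and 4. TGATGNAA was in Cyp3a11 alone. The windows of Cyp2c68 and Cyp2c69 are 91.3% identical, those of Cyp2c37 and Cyp2c50 84.3% and those of Cyp2c40 and Cyp2c69 77.5%, so these matches are not independent of each other. Exact words miss variants of a motif, and the absence of a match says nothing about the factor.

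The Cyp2d enzymes, which act on steroids and on drugs with a basic nitrogen, were tested at 5 of 8 genes and 3 fell. Cyp2d22, often taken as the mouse counterpart of human CYP2D6, had the tightest vehicle group of the called genes. Cyp2d22 read 157, 161, 141, 154 and 152 CPM in vehicle livers and 111, 35.5, 41.7, 78.3 and 56.5 CPM in halofuginone livers. Even the highest treated liver, replicate 1, was below the vehicle group (log2 fold change -1.25, SE 0.26, edgeR adjusted p 0.0111). Cyp2d9, a steroid hydroxylase that is stronger in male mice, stood at 793, 1287, 1124, 896 and 884 CPM with vehicle and 738, 196, 318, 608 and 493 CPM with halofuginone. The groups were separate, replicate 1 narrowly (log2 fold change -1.08, SE 0.31, edgeR adjusted p 0.0313). This call was the least firm of the 11, since it was lost in 8 of 20 alternative settings, with edgeR adjusted p up to 0.263, and 16.7% of its transcript windows occur in another gene. Cyp2d40 fell from a mean of 60.2 ± 4.94 to 30.5 ± 11.6 CPM (SD, n = 5 in each group), and its groups did not overlap (log2 fold change -0.98, SE 0.22, edgeR adjusted p 0.0133).

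Both other abundant Cyp2d genes were lower in the mean without being called. Cyp2d10 measured 534, 604, 602, 568 and 632 CPM in the vehicle livers and 675, 209, 227, 433 and 341 CPM in the treated livers. Replicate 1 was the highest of all 10 livers and replicates 2 to 5 were below every vehicle liver (log2 fold change -0.64, SE 0.28, edgeR adjusted p 0.114; -0.98 with edgeR adjusted p 0.00313 without replicate 1). Cyp2d26 measured 944, 838, 792, 851 and 984 CPM with vehicle and 802, 399, 633, 797 and 696 CPM with halofuginone. Treated replicates 1 and 4 reached the lower end of the vehicle range (log2 fold change -0.41, SE 0.18, edgeR adjusted p 0.126; -0.50 with edgeR adjusted p 0.0483 without replicate 1).

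Cyp2j enzymes turn arachidonic acid into epoxides. Cyp2j6 was at 66.3, 87.2, 72.6, 65.4 and 83.2 CPM in the vehicle group and 59.3, 31.9, 40.0, 44.6 and 41.0 CPM in the halofuginone group. Its fall was the smallest of the called ones, and the groups did not overlap (log2 fold change -0.79, SE 0.15, edgeR adjusted p 0.00895). Cyp2j5, the main Cyp2j gene of the liver, gave 710.0, 676, 677, 589.5 and 733 CPM against 590.5, 540.4, 683, 600.3 and 644 CPM. These values overlapped almost completely (log2 fold change -0.15, SE 0.12, edgeR adjusted p 0.376). The mean of Cyp2j5 was 273 FPKM with vehicle and 276 FPKM with halofuginone, while its mean CPM was 677 and 612. Its share of the summed FPKM was 2.25% and 4.61%, with a lower sum on average in the halofuginone group. Cyp2j9 was near 1 CPM and not called (log2 fold change -0.62, SE 0.33, edgeR adjusted p 0.185; -0.88 with edgeR adjusted p 0.0407 without replicate 1). The single genes Cyp2r1, a vitamin D hydroxylase, and Cyp2u1, a fatty acid hydroxylase, were not called. Cyp2u1 read 15.9, 7.71, 10.4, 14.4 and 14.8 CPM and 21.0, 16.3, 24.3, 14.5 and 15.9 CPM, with 4 of 5 treated livers above every vehicle liver (log2 fold change 0.54, SE 0.21, edgeR adjusted p 0.0777).

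Among the tested genes, 8 shared one arrangement: replicates 2 to 5 of the halofuginone group were below every vehicle liver, while replicate 1 was inside or above the vehicle range. This held for 9.56% of all genes tested in liver. They were Cyp1a2, Cyp2c23, Cyp2c50, Cyp2c54, Cyp2d10, Cyp2e1, Cyp2f2 and Cyp3a25, and all except Cyp2c50 were not called in the full comparison. Cyp2e1 read 12569.8, 14627, 11484, 11313 and 13816 CPM in the vehicle livers and 12679, 2421, 3188, 8646 and 5268 CPM in the halofuginone livers. The mean of the 5 treated livers hides a wide spread, from a level inside the vehicle range in replicate 1 to far below it in replicate 2 (log2 fold change -0.99, SE 0.40, edgeR adjusted p 0.0915; -1.41 with edgeR adjusted p 0.00707 without replicate 1). Cyp2f2, which activates naphthalene and in liver is stronger near the portal vein, gave 682, 756, 801, 668 and 693 CPM and 806, 82.2, 278, 506 and 384 CPM. Replicate 1 was above and the other treated livers below the whole vehicle group (log2 fold change -0.81, SE 0.43, edgeR adjusted p 0.184; -1.22 with edgeR adjusted p 0.0267 without replicate 1). Cyp1a2, the caffeine-oxidising target of the aryl hydrocarbon receptor, gave 211, 209, 254, 179 and 274 CPM and 272, 61.5, 55.1, 118 and 109.9 CPM. It repeated the arrangement of Cyp2e1 (log2 fold change -0.87, SE 0.38, edgeR adjusted p 0.109; -1.41 with edgeR adjusted p 0.00104 without replicate 1).

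**Figure D4:**
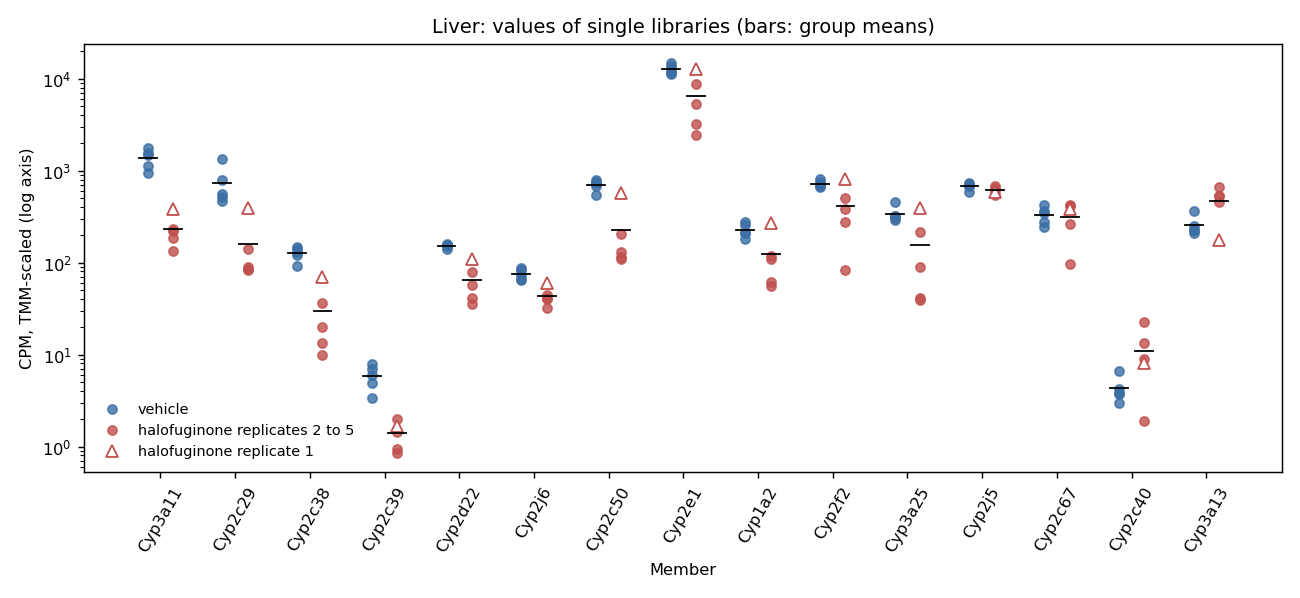
CPM of 15 P450 genes in each liver library on a log axis (blue, 5 vehicle; red circles, halofuginone replicates 2 to 5; open triangle, halofuginone replicate 1), with horizontal bars at the group means. For Cyp3a11, Cyp2c29, Cyp2c38, Cyp2c39, Cyp2d22 and Cyp2j6 the triangle lies below every vehicle point, and for Cyp2e1, Cyp1a2, Cyp2f2 and Cyp3a25 it lies within or above them.

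The Cyp2a and Cyp2b genes were not called, and the vehicle livers differed widely for the Cyp2b genes but not for Cyp2a12. Cyp2b9, a gene stronger in female mice, read 182, 60.8, 29.9, 147 and 135 CPM with vehicle and 23.6, 16.1, 28.4, 91.7 and 21.9 CPM with halofuginone. Treated replicates 1, 2, 3 and 5 were below the vehicle group and replicate 4 was inside it (log2 fold change -1.61, SE 0.55, edgeR adjusted p 0.0553). Cyp2b10, the classic target of the constitutive androstane receptor, ranged over 0.751 to 16.5 CPM in vehicle livers and 0.0497 to 14.5 CPM in treated livers, with no separation (log2 fold change -0.13, SE 0.81, edgeR adjusted p 0.918). Cyp2b13 had means of 3.36 and 0.584 CPM (log2 fold change -2.54, SE 0.85, edgeR adjusted p 0.0506; -2.58 with edgeR adjusted p 0.0467 without replicate 1). Cyp2a12, which hydroxylates steroids and bile acids, gave 532, 493, 588, 596 and 608 CPM and 458, 183, 587, 636 and 674 CPM. Treated replicates 1 and 2 were below the vehicle range, replicates 4 and 5 above it (log2 fold change -0.15, SE 0.28, edgeR adjusted p 0.725). Cyp2a5, an enzyme of coumarin and bilirubin oxidation, spanned 209 to 551 CPM with vehicle and 22.4 to 448 CPM with halofuginone (log2 fold change -0.76, SE 0.55, edgeR adjusted p 0.322), and 25.5% of its transcript windows occur in another gene.

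The rest of the family was scarce in liver. Cyp2a4, Cyp2a22, Cyp2c69, Cyp1b1 and Cyp2r1 were tested and not called, with log2 fold changes of -0.33, 0.41, 1.66, -0.57 and -0.14. Another 23 genes were too low to be tested, and the highest count of any of them in a library was 24. Of these, 9 had no count in any liver: Cyp2b19, Cyp2b23, Cyp2c66, Cyp2d34, Cyp2j11, Cyp2j12, Cyp2j7, Cyp2w1 and Cyp3a41b. The other 14 were Cyp1a1, Cyp2c55, Cyp2c65, Cyp2d11, Cyp2d12, Cyp2g1, Cyp2j13, Cyp2j8, Cyp2s1, Cyp2t4, Cyp3a16, Cyp3a41a, Cyp3a44 and Cyp3a57. Cyp1a1, the most inducible target of the aryl hydrocarbon receptor, was among them at 0 to 0.695 CPM. Counts of 0 allow up to 3 counts, which is 0.0938 to 0.148 CPM in these livers, and this floor covers counting error only.

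Transcripts of some proteins that serve the P450 enzymes were lower as well. Of 14 genes of electron partners and haem supply tested in liver, 6 fell and 0 were called higher, with a median log2 fold change of -0.57. The list includes Hmox1, which breaks haem down and was not called. Without halofuginone replicate 1, 10 fell, Hmox1 among them, and 1 rose (Uros). Over all genes tested, 10.5% were called lower and 12.7% higher, and 21.6% and 21.2% without that library. Alas1, the rate-limiting enzyme of haem synthesis, measured 408, 996, 841, 880.0 and 653 CPM in the vehicle livers and 172, 177, 91.3, 124 and 195 CPM in the halofuginone livers. All treated livers, replicate 1 included, were less than the lowest vehicle liver (log2 fold change -2.31, SE 0.27, edgeR adjusted p 0.00147). The other 5 that fell were Alad and Cpox of the haem pathway, Cyb5b and Cyb5r3 of the cytochrome b5 chain, and the haem-binding Pgrmc1. Por, the electron donor of all these enzymes, gave 615, 465, 436, 422 and 612 CPM and 435, 109, 184, 683 and 532 CPM. Treated replicates 2 and 3 were far below the vehicle group and replicate 4 was above it (log2 fold change -0.39, SE 0.41, edgeR adjusted p 0.505).

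Of 17 regulators of P450 transcription tested, 2 fell and 0 were called higher, against 10.5% and 12.7% of all genes. The 2 of 17 that fell are near the background. Without halofuginone replicate 1, 8 fell and 1 rose (Rxrb), against 21.6% and 21.2% of all genes. The 2 of the full comparison were Arnt, the partner of the aryl hydrocarbon receptor (log2 fold change -0.38, SE 0.13, edgeR adjusted p 0.0493), and Hnf4a, which read 926, 967, 1061, 690.4 and 829 CPM with vehicle and 635, 584, 369, 711 and 431 CPM with halofuginone (log2 fold change -0.71, SE 0.20, edgeR adjusted p 0.0269). The receptor Nr1i3 gave 116, 114, 89.8, 136 and 142 CPM in the vehicle group. In the treated group it gave 147, 2.57, 9.91, 34.9 and 22.5 CPM. Replicate 1 was the highest of all livers, the other 4 were below every vehicle liver, and the gene was not called in the full comparison (log2 fold change -1.47, SE 0.77, edgeR adjusted p 0.178; -2.79 with edgeR adjusted p 0.00243 without replicate 1). Within the treated group the livers had the same order, from replicate 1 through 4, 5 and 3 to 2, for Nr1i3 and Cyp2e1. This order was not particular to the 2 genes. It also held for Cyp2f2, Cyp2d10 and Cyp2d22, for the hepatocyte marker Ttr and for the summed FPKM of the 60 genes, though not for Cyp3a11. Whether Nr1i3 and Cyp2e1 are linked was not tested. Nr1i2 was not called, with 51.3 to 54.7 CPM in vehicle livers and 29.5 to 75.6 CPM in treated livers (log2 fold change -0.10, SE 0.20, edgeR adjusted p 0.741). Ahr was not called (log2 fold change -0.67, SE 0.26, edgeR adjusted p 0.0793; -0.89 with edgeR adjusted p 0.0110 without replicate 1).

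Among 11 genes outside the P450 family that are stronger around the central vein, 6 fell and 0 were called higher. Glul, the glutamine synthetase of the last hepatocytes before the vein, read 1218, 1106, 1101, 1011 and 1192 CPM and 839.6, 498, 331, 452 and 415 CPM, with all treated livers below all vehicle livers (log2 fold change -1.15, SE 0.22, edgeR adjusted p 0.00865). The others that fell were Oat, Aldh1a1, Lect2, Rhbg and Slc1a2. Axin2, Nkd1, Tbx3, Lgr5 and Gstm1 of the same list were not called. Without halofuginone replicate 1, Gstm1 was called lower. The log2 fold changes of Axin2, Nkd1, Tbx3 and Lgr5 were then 0.39, 0.14, -0.13 and -0.57, and none of them was called. Of 12 genes stronger around the portal vein, 1 fell (Aldh1b1) and 0 were called higher. The median log2 fold changes of the central and portal lists were -0.77 and -0.01, against 0.017 for all genes. Without halofuginone replicate 1, 7 of 11 and 2 of 12 were called lower. Of 9 male-predominant liver genes, 2 fell (Cyp2d9 and the fatty acid elongase Elovl3) and 1 rose, the oxysterol hydroxylase Cyp7b1 (log2 fold change 2.31, SE 0.45, edgeR adjusted p 0.00866). Of 4 female-predominant genes tested, 0 were called (1 of 4, Cyp2b13, was lower without replicate 1), and 2 of the 10 listed had no count in any liver. For these lists, the shares over all genes were 10.5% lower and 12.7% higher, and 21.6% and 21.2% without halofuginone replicate 1. The part of hepatocyte content, zonation or the regulators in the P450 results was not tested.

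In white adipose tissue 13 of the 60 genes were tested and 0 were called by edgeR, as for 0 of all 14030 genes tested (0%). DESeq2 called 0 P450 genes as well, while calling 4.72% of all genes. At an unadjusted p under 0.05 only Cyp2u1 differed, and it was higher with halofuginone; 5.50% of all genes met that rule in that direction. A total of 24 P450 genes had no count in any fat library. Adipoq, a marker of fat cells, stood at 991 to 2543 CPM in the vehicle samples and 1310 to 1945 CPM in the halofuginone samples. The summed CPM of the macrophage markers was 1428 to 2195 with vehicle and 669 to 851 with halofuginone, and its part in the fat values below was not tested.

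Cyp2e1 held 74.7% of the summed FPKM of the family in vehicle fat, with a mean of 251 ± 173 FPKM (SD, n = 3). Its levels were 484, 757 and 146 CPM in the vehicle fats and 974, 158 and 1031 CPM in the halofuginone fats. Vehicle replicate 3 and halofuginone replicate 2 were low and the other 4 high, so the groups overlapped (log2 fold change 0.64, SE 0.79, edgeR adjusted p 0.781). Vehicle replicate 3 also had the lowest summed CPM of adipocyte markers, 11588 against 18632 to 22296 in the other 5 fats. Halofuginone replicate 2 had 18632. Cyp1b1, which oxidises estradiol and retinoids in stromal cells, came next at 24.0 ± 8.16 FPKM. Cyp1b1 gave 130.3, 72.2 and 166 CPM and 131, 166 and 88.3 CPM. The groups covered nearly the same range (log2 fold change 0.06, SE 0.35, edgeR adjusted p 0.961).

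The other genes of the fat profile were lower. Cyp2d22 read 47.7, 59.8 and 23.0 CPM with vehicle and 119.6, 61.8 and 62.3 CPM with halofuginone. All 3 treated fats were above all vehicle fats, by a narrow margin in 2 of them (log2 fold change 0.90, SE 0.41, edgeR adjusted p 0.403). Cyp2j6 read 30.8, 28.1 and 25.7 CPM and 24.1, 23.7 and 23.1 CPM. All treated fats were below the vehicle fats, by a small amount (log2 fold change -0.26, SE 0.14, edgeR adjusted p 0.478). Cyp2u1 read 3.24, 3.55 and 2.19 CPM and 5.61, 5.72 and 4.21 CPM, again without overlap and upward (log2 fold change 0.79, SE 0.31, edgeR adjusted p 0.350). Such separation held for 10.4% of all genes downward and 10.2% upward, so 1 and 2 of 13 genes are near the background. Cyp2j9 gave 15.5, 14.9 and 6.29 CPM and 12.7, 13.4 and 11.0 CPM. It did not separate (log2 fold change 0.02, SE 0.34, edgeR adjusted p 0.988). Cyp2s1, a retinoid-metabolising enzyme of epithelia, gave 3.18, 6.71 and 1.96 CPM and 1.30, 0.651 and 3.52 CPM. Its groups overlapped as well (log2 fold change -1.11, SE 0.73, edgeR adjusted p 0.562).

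Some transcripts appeared mainly in part of the fat samples, whether or not they were abundant in liver. Cyp2d9 had 0, 2.83 and 0.693 CPM in the vehicle fats and 0, 0 and 1.58 CPM in the treated fats. Hnf4a was at 0.120, 11.9 and 4.39 CPM and 0.0566, 0 and 5.31 CPM in the same samples. Both genes were thus highest in vehicle replicates 2 and 3 and halofuginone replicate 3, while albumin stayed at 0.750 to 4.59 CPM in all 6 fats. The source of these counts was not tested.

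**Figure D5:**
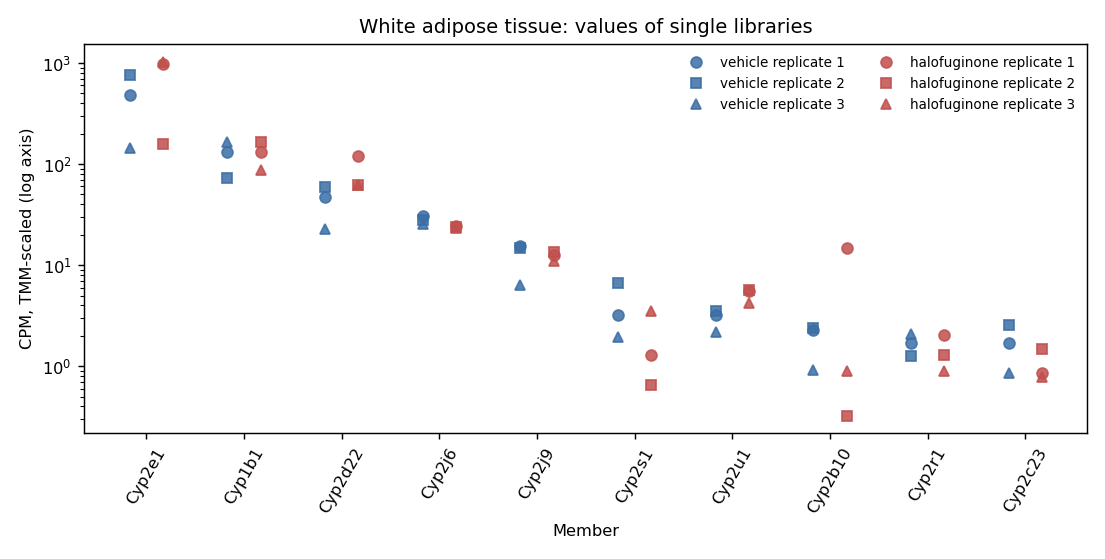
CPM of 10 P450 genes in each white adipose library on a log axis, vehicle in blue and halofuginone in red, with a symbol for each replicate. Cyp2e1 spreads from 146 to 757 CPM within the vehicle group and from 158 to 1031 CPM within the halofuginone group, while Cyp2d22 and Cyp2u1 lie higher and Cyp2j6 lower in all 3 treated libraries.

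The drug effect was compared between tissues in 1 fit of all 16 libraries. Of 40 P450 genes tested, 0 had an effect that differed at an adjusted p under 0.05, as against 0.949% of all genes; 15.7% of all genes had an unadjusted p under 0.05. Cyp2d22 came closest, with a fold change in fat that exceeded the one in liver by 2.13 on the log2 scale (SE 0.50, edgeR adjusted p 0.0559). Its fitted changes were -1.25 in liver and 0.90 in fat. Cyp3a13 differed by -3.24 (SE 0.91, edgeR adjusted p 0.0999), but its fat level averaged 0.210 FPKM with vehicle and 0.043 FPKM with halofuginone, too low to be tested in fat alone. Cyp2c70 differed by -2.01 (SE 0.77, edgeR adjusted p 0.216) and was likewise too low in fat. Many of the 40 genes shared this limit. Cyp2c29, Cyp2c37, Cyp2c38, Cyp2c50, Cyp2d40 and Cyp3a59, which fell in liver, had no count in any fat library. Their contrasts had SEs of 1804 to 10007, so the fit could not compare their drug effects between tissues. DESeq2 called Cyp2d22 and Cyp3a13, with 4.86% of all genes called, and so did edgeR without halofuginone liver replicate 1, with 7.07% of all genes called.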

How the data were processed

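Poly(A)-selected RNA of 10 livers and 6 white adipose samples was sequenced. The authors deposited 1 table per tissue, in which, per the file headers, every library has its counts and its FPKM. The submitters' processing notes name fastp 0.18.0, Bowtie2 2.2.8, HISAT2, StringTie 1.3.1, RSEM and the build mm39, without saying which step made which column. The counts are whole numbers, but 1 to 31 genes in a library are listed with 0 counts and a positive FPKM, and the values may thus be rounded estimates. Reads shared by near-identical P450 genes may have been split, and the strand of the counting is not given in the sources used here.

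Groups came from the sample titles, and 0 count columns were left unmapped. The P450 genes and the companion gene lists were chosen with earlier results of these data known; 2 listed genes are not reported here and were left out of their lists' counts. Counts were fitted in each tissue with edgeR 4.0.16 under R 4.3.3 (TMM, filterByExpr, glmQLFit, glmQLFTest, two-sided, Benjamini-Hochberg over all genes tested, called under 0.05), and the difference between tissues as a contrast over all 16 libraries. CPM values use the TMM library sizes with no prior count. The procedure was tested on simulated data. Alternatives used DESeq2 1.42.0, limma 3.58.1 on log2 FPKM with a pseudocount of 1 or 0.1, other scalings and filters, a replicate block, and each library left out. Replicates of a group all differed by more than counting noise. Values in every library are given for the 8 largest called falls, the 8 highest genes of vehicle liver, the 6 highest of vehicle fat, the 4 with the smallest p in fat and the 3 with the smallest p between tissues; other genes were named for their place in a subfamily or list, some after their values were seen. Promoter windows come from a RefSeq table of build GRCm38.p6, which is not the build of the files, so no file coordinate was used. Shared windows were counted in GENCODE M21 transcripts of the same older build.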

Additional observations from a re-analysis of the deposited data

Results flagged for a closer look

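Within the groups of 5 liver libraries, 44 groups of values were examined for a single library far from the rest, and 3 passed the limit, a gap of over 0.71 of the group's range; chance gives about 1 in 20, or 2.2 here. Cyp2c29 in halofuginone replicate 1 was 396 CPM, with the next value at 141 CPM. Cyp2c50 in the same library was 569.9 CPM, with the next at 206 CPM. Cyp3a13 in vehicle replicate 1 was 366 CPM, with the next at 253 CPM. Without that vehicle library Cyp3a13 was called higher in liver by edgeR.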

How the results depend on the processing

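The liver fold changes of the 20 genes followed kept their sign in each setting that gave a value, while the number below 0 among all 37 tested went from 31 to 26 by library size alone. Of the 11 genes called lower, Cyp3a11, Cyp2c29, Cyp2c37, Cyp2c38, Cyp2c39, Cyp2d22, Cyp2d40 and Cyp2j6 passed in all 20 settings. The count of 11 was 15 with DESeq2 and with limma at either pseudocount, and 9 to 22 when libraries were left out in turn, with 22 only without halofuginone replicate 1. DESeq2 fitted 51 P450 genes in liver and limma tested 33, so these counts have different bases. The count of 0 called higher became 2 with DESeq2 (Cyp2c40 and Cyp3a13), 3 by library size alone, 1 with limma at either pseudocount (Cyp2u1), and 0 to 2 with libraries left out, reaching 1 without vehicle replicate 1 and 2 without halofuginone replicate 1 or 2. In fat it stayed at 0 and 0, also in the range of 0 to 0 over left-out libraries. The difference between tissues was called for 1 gene in each direction with DESeq2 and without halofuginone liver replicate 1, a range of 0 to 1. The ratio of summed FPKM ranged over 0.491 to 0.658 in liver and 1.20 to 2.13 in fat, where the main value was 1.55. Cyp2e1, not called with edgeR on all livers, passed without halofuginone replicate 1 (edgeR adjusted p 0.00707) and, on all 10 livers, with DESeq2 and with limma.

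The replicate numbers did not pair the samples: same-numbered deviations correlated by -0.16 to 0.057 in liver and -0.57 to 0.11 in fat, and not every sample correlated best with its own number. Between liver and fat, the 3 numbers of the vehicle group correlated by 0.070 to 0.24, each best with its own number, and those of the halofuginone group by -0.12 to 0.039, none of them so. With the replicate number as a block, 13 P450 genes were called lower and 0 higher in liver, 10 of them shared with the 11 above, and 0 were called in fat or between tissues. With 3 fat samples a group, the spread limits what can be called there.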

Other observations

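The vehicle livers differed among themselves in a set of sex-biased P450 genes. Cyp2b9 was 60.8 and 29.9 CPM in vehicle replicates 2 and 3 and 135 to 182 CPM in the other 3. Cyp2a22, Cyp2b13 and Cyp2a4 were also lowest in those 2 vehicle livers, with Cyp2a22 at 7.41 and 8.72 CPM against 16.6 to 22.0 CPM. The summed CPM of the 9 male-predominant genes ran the other way, at 14402 and 16305 in vehicle replicates 2 and 3 and 7681 to 8593 in the other vehicle livers. Cyp7b1 was 211 and 239 CPM in those 2 livers and 94.1 to 180 CPM in the rest. The labels give no sex. Genes of the Y chromosome had counts in every liver, vehicle and halofuginone. Eif2s3y ranged over 24.5 to 34.2 CPM, Ddx3y over 26.998 to 49.8, Kdm5d over 8.92 to 17.5 and Uty over 5.64 to 11.5. Eif2s3y was 26.1 and 31.6 CPM in vehicle replicates 2 and 3 and 24.5 to 34.2 CPM in the other 3. Whether the sex-biased values above move together was not tested.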
